A study of Mus musculus with 4 samples.

Results

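The genes described here are 3 Notch receptor genes (Notch1, Notch2 and Notch3), the Notch pathway genes Hes1, Dtx1, Nrarp and Rbpj, the pre-T cell receptor gene Ptcra, and Myc, in CD4+CD8+ double-positive thymocytes. Every probe set whose only gene symbol in the array annotation is one of these 9 genes was taken, which gave 14 of the 45037 probe sets on the array: 2 each for Notch1, Notch3, Dtx1, Nrarp and Rbpj and 1 each for Notch2, Hes1, Ptcra and Myc. Double-positive thymocytes, the immature stage at which a T cell bears CD4 and CD8 at once, were sorted by flow cytometry. The study had 4 arrays: 2 labelled hCD2-iCre x Gfi1fl/fl and 2 labelled WT, all from C57BL/6 mice, with no treatment. In the first label, iCre recombinase is driven by human CD2 regulatory sequences, which are active in lymphocytes, and Gfi1, a zinc-finger repressor gene, is floxed. No recombinase is mentioned for the WT mice, so an effect of iCre alone and one of the floxed gene cannot be told apart. Ages are not stated, and neither is whether the replicates of a label are different mice; p-values therefore reflect only how far these arrays spread, which may be technical, and 2 arrays per label limit the precision.

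Notch receptors are cleaved when a ligand on a neighbouring cell binds them. The released intracellular domain joins the DNA-binding protein RBPJ and switches on targets such as Hes1, Dtx1 and Nrarp. In the thymus the pathway commits progenitors to the T lineage and drives the double-negative stages, when Ptcra is used to build the pre-T cell receptor and Myc supports growth. Signalling through the pre-T cell receptor carries cells to the double-positive stage, where Notch target expression is normally low.

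The values are log2 signals per probe set from robust multi-array averaging (RMA), as the authors deposited them. Array medians lay between 3.53 and 3.55 and array maxima between 13.4 and 13.5. All 10 measured markers of double-positive thymocytes, among them Cd4, Cd8a, Rag1 and Rag2, were above the array median on all 4 arrays. The only named probe set of Gfi1 gave 11.47 and 11.32 on the arrays labelled hCD2-iCre x Gfi1fl/fl and 10.17 and 10.08 on those labelled WT, higher in the first label by 1.27 ± 0.13 (SE; limma, adjusted p = 0.00976). Where this probe set lies relative to the floxed exons is unknown here, and a probe set outside them would be no check of the labels. Every direction below is one between arrays as labelled. Among all 45037 probe sets, 345 were called at an adjusted p of 0.05 (limma, Benjamini-Hochberg over all probe sets), 299 higher and 46 lower in the hCD2-iCre x Gfi1fl/fl label. For the 10 double-positive markers, 9 differences were below 0 (median -0.11), against 9476 of 17097 genes by their brightest probe sets. Only Dntt among these markers was called, lower in the hCD2-iCre x Gfi1fl/fl label, and several alternatives lost that call (below).

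The promoters of 3 genes are shown because they are the pathway genes with the largest differences of either sign (Dtx1 and Nrarp) and the pre-T cell receptor gene that Notch and E proteins are known to activate (Ptcra). Each is a window of 300 bases, 250 before and 50 after the RefSeq start (GRCm38.p6), written on the gene's own strand. Capitals mark the RBPJ core TGGGAA or its reverse complement TTCCCA, and the E-box CANNTG, which reads the same on both strands and is the site of E proteins and, as CACGTG, of Myc with Max.
Ptcra, chr17:46763663-46763962, minus strand: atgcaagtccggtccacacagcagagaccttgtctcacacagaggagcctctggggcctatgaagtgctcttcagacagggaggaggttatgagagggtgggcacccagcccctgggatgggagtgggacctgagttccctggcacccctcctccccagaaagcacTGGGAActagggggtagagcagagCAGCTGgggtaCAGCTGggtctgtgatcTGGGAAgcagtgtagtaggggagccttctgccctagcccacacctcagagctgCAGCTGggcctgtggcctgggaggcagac
Nrarp, chr2:25180508-25180807, plus strand: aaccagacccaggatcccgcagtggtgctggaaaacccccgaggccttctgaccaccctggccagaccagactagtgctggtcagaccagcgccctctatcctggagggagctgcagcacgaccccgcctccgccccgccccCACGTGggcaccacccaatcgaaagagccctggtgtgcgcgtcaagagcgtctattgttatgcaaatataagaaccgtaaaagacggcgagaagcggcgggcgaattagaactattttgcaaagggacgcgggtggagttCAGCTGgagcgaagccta
Dtx1, chr5:120711620-120711919, minus strand: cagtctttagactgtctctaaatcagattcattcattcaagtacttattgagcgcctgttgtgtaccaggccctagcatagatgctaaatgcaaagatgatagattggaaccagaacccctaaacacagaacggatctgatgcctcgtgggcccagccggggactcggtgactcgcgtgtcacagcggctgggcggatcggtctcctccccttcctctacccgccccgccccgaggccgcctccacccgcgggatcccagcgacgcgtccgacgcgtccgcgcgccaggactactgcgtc
The Ptcra window held 2 RBPJ cores, starting 84 and 32 bases upstream of the start, and 3 E-boxes, each CAGCTG, of which 2 lay between those cores. At least 2 RBPJ cores were found in 3.79% of 32851 promoter windows of this length, and at least 3 E-boxes in 17.6%. Nrarp had no RBPJ core and 2 E-boxes, one of them CACGTG 108 bases upstream. At least 2 E-boxes were found in 39.6% of windows. Dtx1 had neither motif. Of the windows not shown, 1 of Rbpj also held 2 RBPJ cores, with 2 E-boxes, and another held 1 core. Those of Notch1, Notch2 and Notch3 had neither motif. At least 1 RBPJ core occurred in 25.6% of windows and at least 1 E-box in 72.3%. A match is a run of letters and was not tested as a site, and the absence of one says only that these letters are not in this window.

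No member of the 14 probe sets passed the test, against 0.766% of all 45037 probe sets, 0.664% higher and 0.102% lower (limma, adjusted p at most 0.05). At an unadjusted p under 0.05 there were 2 of 14, the brighter probe sets of Notch3 and Nrarp, against 7.64% of all probe sets. An ordinary t statistic called 0 of 14 as well, but only 1 of 45034 probe sets over the table, so that 0 says nothing about these genes. It had 2 of 14 at an unadjusted p under 0.05, both of Nrarp. Differences were above 0 for 9 probe sets and below 0 for 5, while 52.8% of all probe sets were below 0. The median difference of the 14 was 0.13, beside -0.01 for all probe sets. The median absolute difference was 0.23 for the 14 and 0.11 for all probe sets, and the typical spread between replicates of a label was also larger, at a median SD of 0.20 against 0.14. The groups did not overlap for 7 of the 14, against 34.7% of all probe sets. At the closest the labels were only 0.008 apart for the dimmer Notch3 probe set, 0.015 for Hes1 and 0.059 for Notch2, all below every array median. Of the 14, 9 lay above the median on all arrays, so the 14 and all probe sets differ in signal level too.

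**Figure D1:**
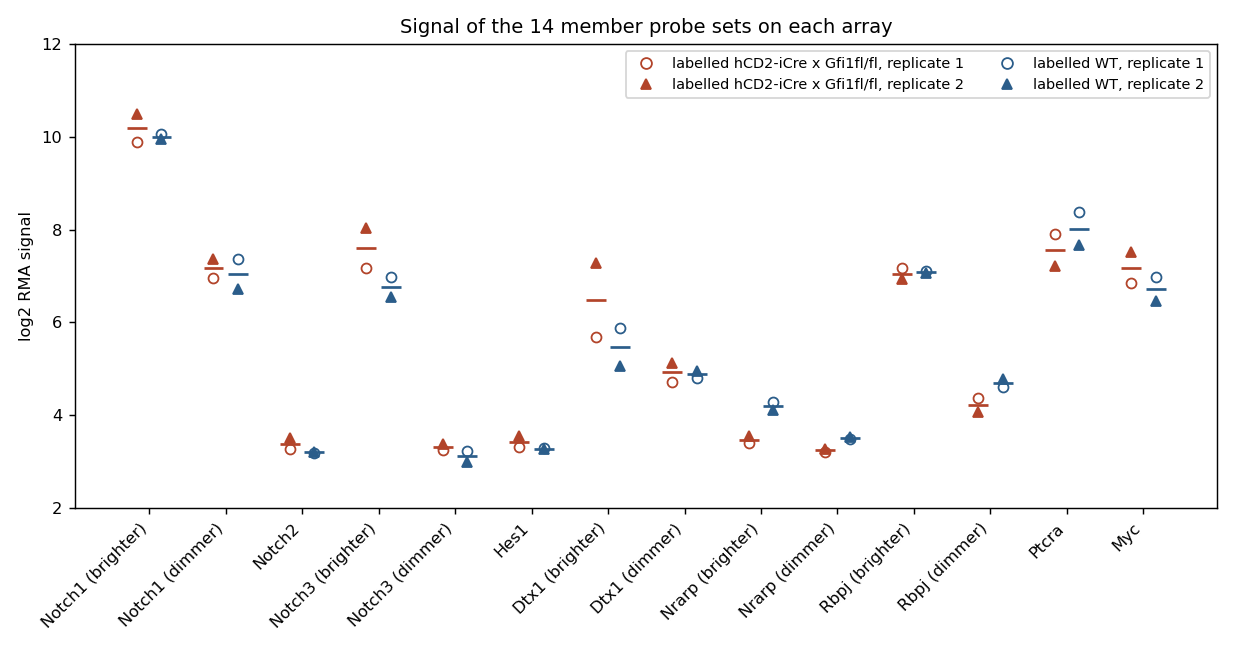
Log2 RMA signal of each of the 14 probe sets (horizontal axis) on each of the 4 arrays; circles are replicate 1, triangles replicate 2, and bars the mean of 2 arrays, with the hCD2-iCre x Gfi1fl/fl label left of the WT label. The brighter Nrarp probe set separates the labels with little spread (3.40 and 3.54 against 4.29 and 4.11), whereas the brighter Dtx1 probe set spreads more widely within the hCD2-iCre x Gfi1fl/fl label (5.69 and 7.27) than its label means lie apart (6.48 against 5.47).

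Among the receptors, Notch1, the receptor required for T lineage commitment, had a strong signal under both labels. Its brighter probe set gave 9.89 and 10.50 on the arrays labelled hCD2-iCre x Gfi1fl/fl and 10.06 and 9.95 on those labelled WT. The ranges overlap, because both WT arrays lie between the others. The difference was 0.19 ± 0.22 (SE; limma, adjusted p = 0.964), with a 95% interval of -0.32 to 0.71. The dimmer Notch1 probe set, at 6.96 and 7.37 in the hCD2-iCre x Gfi1fl/fl label and 7.38 and 6.72 in the WT label, differed by 0.12 ± 0.31 (SE).

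Notch3, a receptor gene known to be a target of Notch1 signalling in thymocytes, had the largest receptor difference. Its brighter probe set gave 7.18 and 8.04 on the arrays labelled hCD2-iCre x Gfi1fl/fl and 6.99 and 6.54 on those labelled WT. Both values of the first label were above both of the second, but by 0.19 at the closest. The difference of 0.84 ± 0.34 (SE), a 1.79-fold difference in signal, was not called (limma, adjusted p = 0.622), with an interval of 0.03 to 1.65. Without replicate 2 of the hCD2-iCre x Gfi1fl/fl label the difference was 0.42, and without replicate 1 it was 1.27. The dimmer Notch3 probe set lay below the median of every array and differed by 0.19 ± 0.13 (SE).

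Notch2, a receptor with better known roles in B cells and myeloid cells, gave 3.27 and 3.51 on the arrays labelled hCD2-iCre x Gfi1fl/fl and 3.19 and 3.21 on those labelled WT. All 4 values were below the array medians. At so low a signal a difference in transcript was hardly detectable with this probe set, and that of 0.19 ± 0.13 (SE) was not called (limma, adjusted p = 0.873). It was 0.07 without replicate 2 of the hCD2-iCre x Gfi1fl/fl label and 0.31 without replicate 1.

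The differences of the target genes did not share a sign, and none was called. Dtx1, which encodes the E3 ligase Deltex 1 and is a sensitive Notch target in thymocytes, had the largest difference of the set. Its brighter probe set gave 5.69 and 7.27 on the arrays labelled hCD2-iCre x Gfi1fl/fl and 5.88 and 5.05 on those labelled WT. Replicate 2 of the hCD2-iCre x Gfi1fl/fl label stood above the other 3 arrays, and replicate 1 lay between the WT values. The difference was 1.02 ± 0.53 (SE), 2.03-fold in signal (limma, adjusted p = 0.768). Without replicate 2 of the hCD2-iCre x Gfi1fl/fl label it was 0.23, and without replicate 1 it was 1.81. The dimmer Dtx1 probe set gave 4.71 and 5.14 in the hCD2-iCre x Gfi1fl/fl label and 4.81 and 4.95 in the WT label, a difference of 0.04 ± 0.25 (SE), so the probe sets of this gene disagree in size.

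Nrarp, a Notch target whose ankyrin-repeat product binds the Notch complex and dampens it, differed in the opposite direction and with the smallest p of the set. The brighter probe set gave 3.40 and 3.54 on the arrays labelled hCD2-iCre x Gfi1fl/fl and 4.29 and 4.11 on those labelled WT. The labels were 0.57 apart at the closest, several times the SD of 0.10 and 0.13 within them. The difference of -0.73 ± 0.17 (SE), a 1.66-fold lower signal with an interval of -1.14 to -0.33, had an unadjusted p of 0.00369, but it was not called (limma, adjusted p = 0.205; 0.135 to 0.582 over the alternatives fitted with limma). The largest unadjusted p among the probe sets that were called was 0.000374. The dimmer probe set gave 3.22 and 3.27 in the hCD2-iCre x Gfi1fl/fl label and 3.48 and 3.52 in the WT label, again without overlap, and differed by -0.26 ± 0.12 (SE; limma, adjusted p = 0.727). The signals were low: the dimmer probe set was below the median of all 4 arrays and the brighter one below it on both arrays labelled hCD2-iCre x Gfi1fl/fl, where RMA compresses differences.

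Hes1, the basic helix-loop-helix repressor that is the classical Notch target, gave 3.31 and 3.54 on the arrays labelled hCD2-iCre x Gfi1fl/fl and 3.30 and 3.26 on those labelled WT. All 4 values lay below the array medians. The difference was 0.15 ± 0.14 (SE; limma, adjusted p = 0.935), with an interval of -0.17 to 0.47, and it was 0.03 without replicate 2 of the hCD2-iCre x Gfi1fl/fl label and 0.26 without replicate 1.

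Rbpj, the DNA-binding partner of cleaved Notch, had a brighter probe set at 7.16 and 6.93 on the arrays labelled hCD2-iCre x Gfi1fl/fl and 7.10 and 7.07 on those labelled WT. It differed by -0.04 ± 0.24 (SE), with an interval of -0.60 to 0.52. The dimmer probe set gave 4.38 and 4.08 in the hCD2-iCre x Gfi1fl/fl label and 4.60 and 4.79 in the WT label, without overlap. Its difference of -0.47 ± 0.22 (SE) was not called (limma, adjusted p = 0.717).

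**Figure D2:**
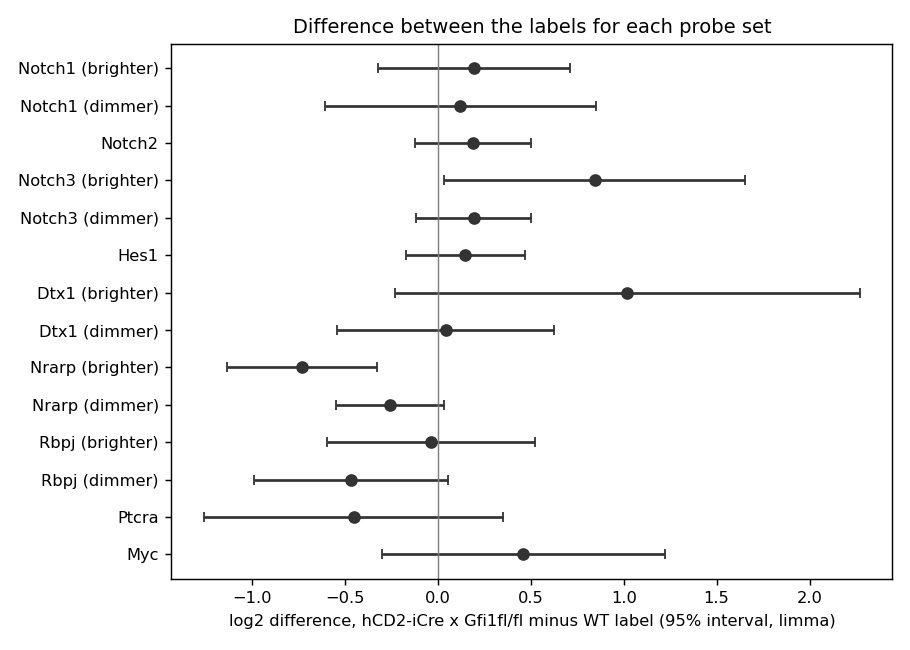
Log2 difference between the labels (hCD2-iCre x Gfi1fl/fl minus WT, horizontal axis) for each of the 14 probe sets, with 95% intervals from limma. The intervals of the brighter Notch3 probe set (0.03 to 1.65) and the brighter Nrarp probe set (-1.14 to -0.33) leave out 0, neither with an adjusted p under the threshold, and the other 12 include it.

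Ptcra, which encodes the invariant pre-T alpha chain that pairs with a rearranged T cell receptor beta chain, gave 7.92 and 7.22 on the arrays labelled hCD2-iCre x Gfi1fl/fl and 8.38 and 7.67 on those labelled WT. In both labels replicate 1 was above replicate 2, by 0.69 and 0.71, and the ranges overlap. The difference was -0.45 ± 0.34 (SE; limma, adjusted p = 0.888), with an interval of -1.26 to 0.35. It was -0.80 without replicate 1 of the hCD2-iCre x Gfi1fl/fl label, -0.11 without replicate 2, -0.10 without WT replicate 1 and -0.81 without WT replicate 2. Compared by replicate number, it was -0.46 for replicates 1 and -0.45 for replicates 2, although the labels do not say that a number marks a shared animal or day. With the number as a block the difference was still not called (limma, adjusted p = 0.574, unadjusted p = 0.0578).

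Of 17 measured genes of pre-T cell receptor partners and E proteins, 0 rose, 1 fell and 16 did not pass the test, against 1.01% called of 17097 genes by their brightest probe sets (0.871% higher and 0.135% lower). The exception was Dntt, the gene of the enzyme that adds untemplated nucleotides during receptor gene rearrangement. It fell by 0.69 to 11.65 and 11.60 on the arrays labelled hCD2-iCre x Gfi1fl/fl, against 12.23 and 12.39 on those labelled WT (limma, adjusted p = 0.0381). That call was lost without either WT array (adjusted p = 0.135 and 0.260), without replicate 2 of the hCD2-iCre x Gfi1fl/fl label (0.0645), with the replicate block (0.0529), with a robust prior (0.0671), without the intensity trend (0.177) and with an ordinary t statistic (0.607). The list's median difference was 0.00, beside -0.02 for all genes. The E-box is the motif of E proteins, but binding at the matches shown above was not tested. The E protein genes Tcf3 and Tcf12 differed by -0.35 ± 0.20 and 0.16 ± 0.11 (SE), neither called. These and the Id genes were picked out after their values were seen. Id2, which encodes an inhibitor of E proteins, gave 8.97 and 8.66 on the arrays labelled hCD2-iCre x Gfi1fl/fl and 7.41 and 6.73 on those labelled WT. Its brightest probe set, with a difference of 1.74, was just outside the threshold (limma, adjusted p = 0.0627). It was called with 1 probe set per gene (0.0429), single-symbol probe sets (0.0496), the replicate block (0.0493) and a robust prior (0.0409). Renewed quantile scaling (0.0463) and both dim filters (0.0446 and 0.0454) also gave a call. Median centring (0.0569), no intensity trend (0.144) and an ordinary t statistic (0.716) did not. Its difference was between 1.41 and 2.08 when 1 array was left out. With the replicate block or the robust prior the list had 1 gene called higher and 0 lower, so its split depended on the fit. Of the 3 Id2 probe sets 1 was called higher. Id3, a related inhibitor, differed by 0.54 ± 0.28 (SE; limma, adjusted p = 0.766).

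Double-negative stage markers were examined because Notch targets and Ptcra belong to that stage. Of 11 measured markers 0 rose, 1 fell and 10 did not pass, against 1.01% called of all genes (0.871% higher and 0.135% lower). The median difference was 0.02. The one that fell was Cd44, the hyaluronan receptor, at 3.57 and 3.60 on the arrays labelled hCD2-iCre x Gfi1fl/fl and 6.81 and 6.68 on those labelled WT (limma, adjusted p = 0.00200). Its values on the arrays labelled hCD2-iCre x Gfi1fl/fl lie at about the array median, so the size of that gap is one of signals and not of transcripts. Of the 4 Cd44 probe sets 2 were called, both lower. The markers above the array median on all 4 arrays numbered 3 of 11, and Hes1 is itself on this list. Il2ra, the interleukin-2 receptor alpha chain of that stage, differed by 0.19 ± 0.17 (SE). Kit, the stem cell factor receptor, differed by -0.44 ± 0.10 and Lmo2, another marker on the list, by 0.43 ± 0.12 (SE; limma, adjusted p = 0.210 and 0.294). All values of Kit and Lmo2 lay below the array medians. Il2ra, Kit and Lmo2 were named after their values were seen. Of the 11 differences, 6 were above 0 and 5 below. In these sorted samples fewer cells of a type and less RNA per cell cannot be told apart.

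Myc, a growth-promoting transcription factor gene and a direct target of Notch1 in thymocytes, gave 6.84 and 7.51 on the arrays labelled hCD2-iCre x Gfi1fl/fl and 6.98 and 6.45 on those labelled WT. Replicate 1 of the first label lay between the WT values and replicate 2 above them. The difference was 0.46 ± 0.32 (SE; limma, adjusted p = 0.874), with an interval of -0.30 to 1.22, and it was 0.13 without replicate 2 of the hCD2-iCre x Gfi1fl/fl label and 0.79 without replicate 1. Of 11 measured Myc partners and antagonists none was called, and 8 differences were below 0 (median -0.06). The largest were 0.96 ± 0.30 (SE) for Mycn, the related factor of progenitor cells, and -0.50 ± 0.25 (SE) for Mxd1, which competes with Myc for Max (limma, adjusted p = 0.418 and 0.757). Of the 3 Mycn probe sets the dimmer ones differed by 0.42 and -0.19, so the probe sets of this gene do not share a sign.

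Of 27 measured genes that Myc is known to activate in growing cells, none was called by its brightest probe set, and differences were above 0 for 16 and below 0 for 11 (median 0.02). Tfrc, the transferrin receptor, gave 9.64 and 10.07 on the arrays labelled hCD2-iCre x Gfi1fl/fl and 8.73 and 8.65 on those labelled WT, a difference of 1.17 ± 0.21 (SE; limma, adjusted p = 0.0793). The Tfrc difference was 1.38 without replicate 1 of the hCD2-iCre x Gfi1fl/fl label and 0.96 without replicate 2. It was 1.21 without WT replicate 1 and 1.13 without WT replicate 2. Ccnd2, which encodes cyclin D2, averaged 6.09 ± 1.20 on the arrays labelled hCD2-iCre x Gfi1fl/fl and 3.78 ± 0.32 on those labelled WT (SD, n = 2 each). Its difference of 2.31 ± 0.51 (SE) was not called for the brightest probe set (limma, adjusted p = 0.172). That difference was 3.16 without replicate 1 of the hCD2-iCre x Gfi1fl/fl label and 1.47 without replicate 2. It was 2.54 without WT replicate 1 and 2.09 without WT replicate 2. Of the 6 Ccnd2 probe sets 2 were called higher, with differences of 2.69 and 1.67.

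**Figure D3:**
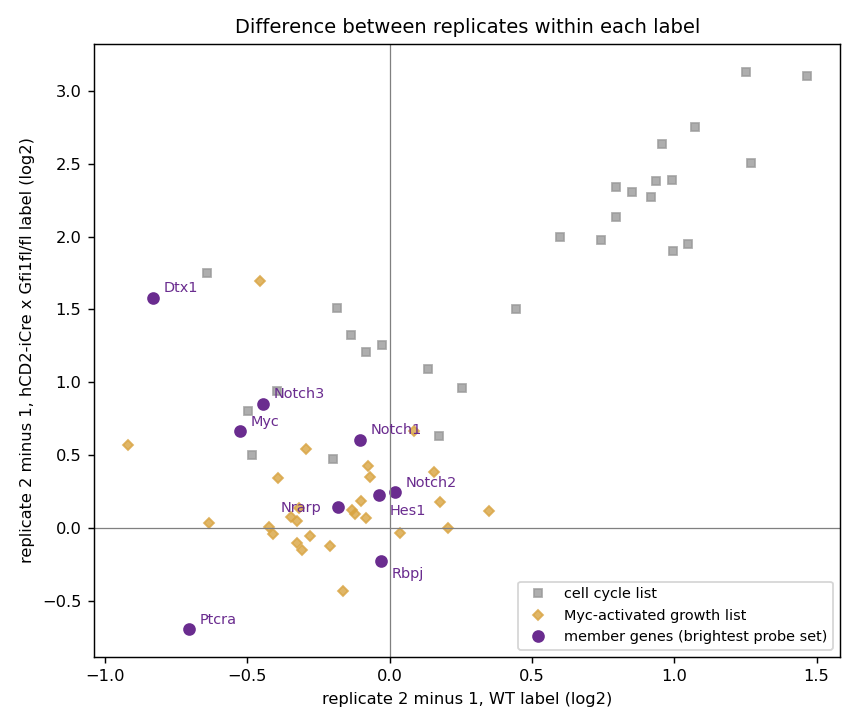
Replicate 2 minus replicate 1 on the log2 scale, within the hCD2-iCre x Gfi1fl/fl label (vertical axis) and within the WT label (horizontal axis), for the brightest probe set of each of the 9 genes (purple), 28 cell cycle genes (grey) and 27 Myc-activated growth genes (yellow). Dtx1, Notch3 and Myc lie at the upper left, higher on replicate 2 of the hCD2-iCre x Gfi1fl/fl label by 1.58, 0.85 and 0.67 and lower on replicate 2 of the WT label, by contrast with most cell cycle genes, which are higher on replicate 2 of both labels.

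The spread within the hCD2-iCre x Gfi1fl/fl label followed a shared order. By brightest probe set, 7 of the 9 genes were higher on replicate 2 than on replicate 1 of that label (43.2% of all 17097 genes were), the exceptions being Rbpj and Ptcra. In the WT label 1 of 9, Notch2, was higher on replicate 2 (41.7% of all genes). Replicate 2 of the hCD2-iCre x Gfi1fl/fl label was the highest of the 4 arrays for 6 of the 9, Notch1, Notch2, Notch3, Hes1, Dtx1 and Myc, and for 21.3% of all genes. Cell cycle genes also separated these arrays: the mean of 28 measured members was 7.93 and 9.71 on replicates 1 and 2 of the hCD2-iCre x Gfi1fl/fl label and 8.73 and 9.20 on replicates 1 and 2 of the WT label, with all 28 higher on replicate 2 of the first label and 19 higher on replicate 2 of the WT label. None of these cell cycle genes passed the test, with 26 of 28 differences below 0 (median -0.12). That median depended on single arrays: it was 0.78 without replicate 1 of the hCD2-iCre x Gfi1fl/fl label, -1.08 without replicate 2, -0.43 without WT replicate 1 and 0.11 without WT replicate 2. Among the cell cycle genes, Ccne1 and Ccne2, the E-type cyclins, had the largest differences, 0.79 and -0.63. The cell cycle mean was lowest on replicate 1 of the hCD2-iCre x Gfi1fl/fl label, while Notch3, Dtx1 and Myc were lowest on replicate 2 of the WT label. The part of cell cycle state in the values of Notch3, Dtx1 and Myc was not tested. The genes whose profile over the 4 arrays was closest to that of the brighter Dtx1 probe set, by Euclidean distance between mean-centred log2 values, were Fbln1, an extracellular matrix gene (0.44), Scpep1, a serine carboxypeptidase gene (0.47), and Ccnd2 (0.51, a dimmer probe set than the one above). Over 4 arrays this is a description only.

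The other genes of the Notch pathway showed no calls in any of the 5 lists. Of 5 measured ligand and receptor genes, none lay above the array median on all arrays; the largest differences were 0.14 for Notch4, a receptor of endothelium, and 0.05 for Dll1, a ligand. Of 14 measured genes of receptor processing and glycosylation, none passed (median -0.05). Mfng, a Fringe glycosyltransferase that tunes ligand choice, gave 6.46 and 6.30 on the arrays labelled hCD2-iCre x Gfi1fl/fl and 7.20 and 6.80 on those labelled WT, a difference of -0.62 ± 0.26 (SE; limma, adjusted p = 0.645). Psen2, a catalytic gamma-secretase subunit gene, differed by -0.62 ± 0.35 (SE).

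Of 11 measured genes of Notch turnover and endocytosis none passed (median 0.00). The Deltex relatives Dtx3l and Dtx2 had the largest differences, 0.61 ± 0.21 and -0.43 ± 0.23 (SE; limma, adjusted p = 0.472 and 0.776). Of 10 measured RBPJ coactivators and corepressors none passed (median 0.01); Snw1, a coactivator, differed by -0.49 ± 0.50 and L3mbtl3, a corepressor partner, by 0.37 ± 0.24 (SE). Of 16 further Notch targets none passed (median 0.00). Gata3, a T lineage factor, gave 9.30 and 9.23 on the arrays labelled hCD2-iCre x Gfi1fl/fl and 8.82 and 8.59 on those labelled WT, a difference of 0.56 ± 0.19 (SE; limma, adjusted p = 0.496), and Tspan6, a tetraspanin gene, differed by -0.44 ± 0.25 (SE).

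**Figure D4:**
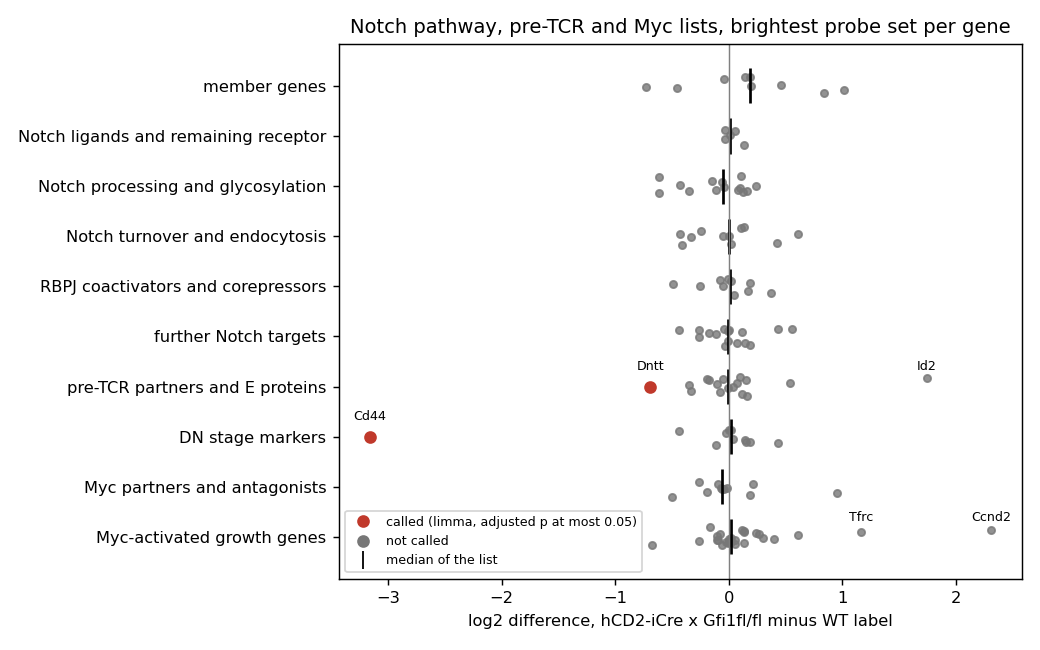
Log2 difference between the labels (hCD2-iCre x Gfi1fl/fl minus WT, horizontal axis) for the brightest probe set of each gene in 10 lists, with the median of each list as a bar; red points passed the test. The member genes spread from -0.73 (Nrarp) to 1.02 (Dtx1) with none called, and Dntt and Cd44 are the only called genes in these lists.

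Markers of other cells that could bring Notch or Myc transcripts were mostly at low signal. The mean of 13 thymic epithelial and stromal markers was 3.87 and 3.74 on the arrays labelled hCD2-iCre x Gfi1fl/fl and 3.78 and 3.61 on those labelled WT. Of these 13, 3 were above the array median on all arrays and none was called; Epcam and Krt8 differed by 1.68 and -0.30. B cell markers averaged 3.66 and 3.48 in the hCD2-iCre x Gfi1fl/fl label and 3.76 and 3.60 in the WT label, with none of 9 called and 2 above the array median throughout (Cd79b and Ms4a1 differed by -1.23 and 0.19). Myeloid and dendritic markers averaged 3.44 and 3.50 in the hCD2-iCre x Gfi1fl/fl label and 3.56 and 3.30 in the WT label, with none of 10 called and 1 above the array median throughout (Lyz2 and Itgam differed by 0.51 and -0.22). Markers of gamma-delta T and innate lymphoid cells averaged 4.83 and 4.80 in the hCD2-iCre x Gfi1fl/fl label and 3.70 and 3.76 in the WT label, with 3 of 9 above the array median throughout. The list's median difference was 0.13, with 6 differences above 0 and 3 below. Only Cd163l1, a scavenger receptor gene, was called, 1 of 9 against 1.01% of all genes. It averaged 10.99 ± 0.01 in the hCD2-iCre x Gfi1fl/fl label and 3.54 ± 0.56 in the WT label (SD, n = 2 each). The WT mean lies at about the array median, so the size of that gap is one of signals and not of transcripts. Without Cd163l1 the other 8 markers averaged 4.06 and 4.02 in the hCD2-iCre x Gfi1fl/fl label and 3.77 and 3.74 in the WT label. Leaving out 1 array of the hCD2-iCre x Gfi1fl/fl label added calls among these markers: Cd79b lower (-1.79; limma, adjusted p = 0.0415) and Nkg7 higher (1.42; 0.00692) without replicate 1, and Epcam (2.15; 0.0437) and Blk (1.73; 0.0261) higher without replicate 2. Nkg7, a cytotoxic granule gene, and Blk, a kinase gene, were named after their values were seen. The part of such cells in the values of the 9 genes was not tested.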

How the data were processed

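RNA of sorted double-positive thymocytes was labelled with biotin and hybridised to Affymetrix 3' arrays, 1 per sample, per the labels' protocols. The authors deposited log2 values; per the submitters' processing notes they used RMA and Affymetrix Expression Console 1.1, and no genome build is given in the sources used here. The values were used as deposited, without detection calls or further normalization. Samples were grouped by title. Of 45037 probe sets, 28898 had 1 gene symbol (17097 genes) in the platform annotation, 551 had several and 15588 were not listed; symbols were checked against RefSeq (GRCm38.p6) through Entrez identifiers, and 0 changed.

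The test was limma (3.58.1, under R 4.3.3) on all probe sets, by lmFit and by eBayes with an intensity-dependent prior and no covariate, two-sided, adjusted by Benjamini-Hochberg over the whole table. There were 2 residual and 5.05 prior degrees of freedom. The test was checked on simulated data. It recovered 19.5% of log2 differences of 1 and 45% of those of -1, and 5.47% of calls were false. Of differences of 2 and -2 it recovered 81.4% and 85.9%. A difference of about 1 could therefore often go uncalled. Lists were read by the brightest probe set of each gene. Named list genes are up to 4 called genes with the largest differences, or the 2 largest where none was called; others are marked as chosen after their values were seen. The genes and lists were chosen with earlier results of these data known. Promoter windows come from RefSeq and were found for 7 of the 9 genes. Alternatives were the replicate block, 2 rescalings, filters on dim probe sets, other priors, other feature sets, an ordinary t statistic and leaving out each array. Plots were made in Python 3.11.15 with matplotlib 3.10.9.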

Additional observations from a re-analysis of the deposited data

How the results depend on the processing

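The count of 0 called among the 14 probe sets was the same in every one of the 15 alternatives, of which the filter on the dimmest 50% left 10 of the 14 to test and both fits with 1 value per gene left 9. With 0.766% of all probe sets called in the main fit, 0 of 14 is what so small a set would mostly give, so this constancy says little. On simulated data the test recovered only 19.5% of log2 differences of 1 and 45% of those of -1, so 0 called does not exclude such differences. The count of 345 over all probe sets moved to 205 without the intensity trend, 190 with 1 probe set per gene, 157 with the mean of a gene's probe sets and 1 with an ordinary t statistic, which leaves out 3 probe sets with no spread, and ranged from 168 to 368 when 1 array was left out (178 without WT replicate 1 and 168 without WT replicate 2). Fewer features or a spread from fewer arrays enter some of these fits; otherwise the cause was not tested. With the replicate block it was 272. Deviations of same-numbered arrays from their label means correlated at 0.30 over probe sets, which with 2 arrays per label is a single value and does not show pairing, so the number is used only as an alternative.

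Of the alternatives fitted by probe set, only the 2 rescalings and leaving out an array could change a sign. The others leave each difference as it is. Direction was kept in every alternative (of those fitted by probe set) by the probe sets of Notch2, Notch3, Hes1, Nrarp, Ptcra and Myc, the brighter one of Dtx1 and the dimmer one of Rbpj. The other 4 changed sign when 1 array was left out, with none called. Over all these alternatives the brighter Notch1 probe set ranged from -0.11 to 0.50 and the dimmer from -0.21 to 0.45 (-0.09 without hCD2-iCre x Gfi1fl/fl replicate 2). The dimmer Dtx1 probe set ranged from -0.17 to 0.25 (-0.03 without WT replicate 1), and the brighter Rbpj probe set from -0.15 to 0.077. A fit without 1 array assumes that the lone array varies like the other label. Signals near the array median, as for Notch2, Hes1 and Nrarp, limit what these probe sets can show.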
